A study of Mus musculus with 6 samples.

Results

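The integrin chains and the adaptors that couple them to the cytoskeleton were examined in mouse endothelial cells that overexpressed extracellular superoxide dismutase (SOD3). Members were the 35 genes of a list of 17 integrin α chains, 8 β chains with the integrin β-like protein *Itgbl1*, and 9 adaptors and kinases of focal adhesions, out of 35713 genes represented on the array. A spot belonged to a member when the array's own annotation named the gene by a RefSeq accession, its symbol or its full name. All 35 genes were found, on 53 probes of 1 spot each out of 55681 probes. Of these genes, 19 had 1 probe and 16 had several. A further 3 spots for cDNA clones, described as integrin products without a gene symbol, were left out.

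RNA came from 1G11-mock and 1G11-SOD3 cells, both derived from the mouse microvascular endothelial line 1G11, which is labeled as of C57BL/6NCrLBR strain. 1G11-SOD3 cells had been modified to overexpress SOD3 and 1G11-mock cells carried the control modification. Before RNA isolation both lines spent 6 h in conditioned medium of N202.1A, a mouse mammary cancer line, so no sample shows either line without tumor medium. Whether each line is 1 clone or a mixed population was not given in the sources used here. There were 3 arrays per line, described as biological replicates. All lay on 1 slide, with 1G11-mock in slide row 2 and 1G11-SOD3 in slide row 1, so that line and slide row cannot be told apart.

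Integrins are receptors made of an α and a β chain that hold cells to the extracellular matrix and transmit signals in both directions across the membrane. Each pairing prefers certain ligands: α3β1, α6β1, α7β1 and α6β4 bind laminins of the basement membrane, α5β1 and the αv integrins bind the RGD motif of fibronectin and vitronectin, and α1β1, α2β1, α10β1 and α11β1 bind collagens. Inside the cell, talin and kindlin switch integrins on, whereas vinculin, paxillin, integrin-linked kinase and focal adhesion kinase build the adhesion plaque and signal from it.

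Values are log2 intensities after background correction and quantile normalization, and a difference is 1G11-SOD3 minus 1G11-mock. The term called is used of a probe that passed both a 2-fold difference and an adjusted p of 0.05 (limma, Benjamini-Hochberg over all probes). Between 34.2% and 43.8% of the spots on an array were well above background by the scanner software, and none was saturated. The label check, *Sod3*, read 13.61, 12.66 and 9.86 on the 1G11-mock arrays (replicates 1 to 3) and 16.37, 16.30 and 16.26 on the 1G11-SOD3 arrays (log2 difference 4.27, adjusted p = 0.00786). This spot was printed in the central region described in the next paragraph, and after the position adjustment given there the difference was 2.51 (adjusted p = 0.0268). Of 12 endothelial markers, 4 were well above background on every array of a line, among them *Kdr*, *Eng* and *Vwf*, and 6, including *Cdh5*, *Tek* and *Erg*, were so on no array. Of these markers *Vwf* was called lower (−1.65, adjusted p = 0.00342). The summed log2 level of the endothelial list was 14.41 to 14.88 on the 1G11-mock arrays and 13.83 to 14.13 on the 1G11-SOD3 arrays, without overlap. This sum weighs the bright genes *Eng* and *Kdr* most, and neither was called. By gene, 6 of the 12 were higher and 6 lower, with a median log2 difference of −0.01. *Esam*, also well above background on every array, lay in the central region and was higher (1.22, adjusted p = 0.188 in limma). Its difference after position adjustment was −0.41. Of 9 epithelial markers, 3 were well above background on every array of a line and 3 on no array. *Krt14*, a keratin of basal epithelium, was called higher (4.82, adjusted p = 7.23e-05). Its spot also lay in the central region, and its difference after position adjustment was 1.83 (adjusted p = 0.00367). The summed level of the epithelial list was 16.05 to 16.78 on the 1G11-mock and 15.79 to 16.47 on the 1G11-SOD3 arrays. Most of it was *Krt19*, the brightest of the list, which was not called (−0.52, adjusted p = 0.480 in limma). By gene, 4 of the 9 were higher and 5 lower, with a median log2 difference of −0.20. The part of the endothelial and epithelial markers in the results below was not tested.

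The difference between the lines moved with where a spot was printed. Spots in rows 129 to 256 and columns 55 to 109, the middle of the array, were dimmer on the 1G11-mock than on the 1G11-SOD3 arrays. A smooth position surface was estimated from the other probes on each array, and the difference of its group means (1G11-SOD3 minus 1G11-mock) is given below as the surface at a spot. Over all probes, 11.6% of those in the middle were called higher against 0.644% of those outside it. Taking the surface off lowered the median SD of the line difference over the copies of 221 probes printed 10 times from 0.498 to 0.169. It is an estimate, and with it the calls over all probes changed from 1040 higher and 589 lower to 460 higher and 859 lower. For the members described in detail, the difference after this position adjustment is given beside the unadjusted one.

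**Figure D1:**
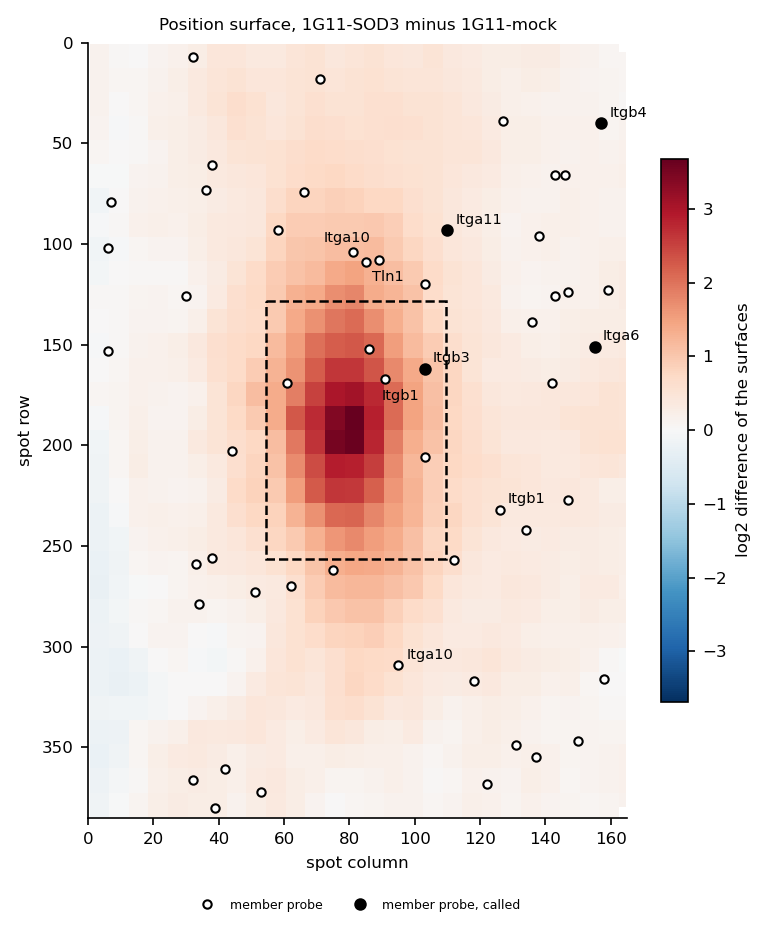
Map of an array in spot rows and columns, colored by the log2 difference between the position surfaces of the 2 cell lines in blocks of spots (red, higher on the 1G11-SOD3 arrays), with the 53 member probes as circles, called ones filled, and the middle outlined by dashes. *Itgb3* and 1 of 2 *Itgb1* probes lie in the middle, *Tln1* and 1 of 2 *Itga10* probes lie just above it, and *Itga11*, *Itga6* and *Itgb4* lie away from it.

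The probes that the results turn on are shown by the central 30 of their 60 bases, in the sense of the transcript and in the order in which they are discussed. The pair for *Itga6* is shown because its probes gave opposite differences, that for *Itgb1* because 1 of them lies in the middle, and that for *Itga10* because the probes overlap. Capitals mark the 24 bases that the displayed stretches of the *Itga10* probes share.
Itga11: tgtcatctgttcccctatgcggtactacct
Itgb4: cccagccttttgttctgcacttaataaaag
Itga6, RefSeq probe: ggaggtcttgttgttgttgttgttctgacc
Itga6, Ensembl probe: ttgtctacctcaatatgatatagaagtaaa
Itgb1, outer probe: cctatttacaagagtgccgtgacaactgtg
Itgb1, middle probe: ggaaagagaacagttcggaaatctgcagta
Itgb3: agtctttgtccatttttggttgaaattgct
Itga10, first probe: ctgtcaTGGTGAGCAAATGGTCAGAACAAA
Itga10, second probe: TGGTGAGCAAATGGTCAGAACAAAtaaaat

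The array annotation places these probes, on a build it does not name, at chr9:62631667-62631726 for *Itga11*, chr11:115869666-115869725 for *Itgb4*, chr2:71694756-71694815 and chr2:71690633-71690692 for the RefSeq and Ensembl probes of *Itga6*, chr8:131246349-131246408 for the middle probe of *Itgb1*, chr11:104531672-104531731 for *Itgb3*, and chr3:96468377-96468436 and chr3:96468383-96468442 for *Itga10*, all on the plus strand. The outer *Itgb1* probe spans an exon junction, from 131250081 to 131255976 of chromosome 8. Probes were designed on transcripts, and which of them lie in untranslated regions was not determined here.

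Of the 35 genes, 17 were well above background on all arrays by at least 1 probe, 5 on some arrays and 13 on none. Of the 53 member probes, 3 were called higher and 1 lower in 1G11-SOD3 cells, or 7.55%, against 2.93% of all probes (1.87% higher and 1.06% lower). If only bright probes are counted, those well above background on all arrays of at least 1 line, 14.3% of the 28 member probes were called against 8.05% of all such probes. The called probes were those of *Itga11*, *Itgb3* and *Itgb4* and the Ensembl probe of *Itga6*. With each gene read by its brightest probe, *Itga11* and *Itgb3* were called higher and *Itgb4* lower, or 8.57% of the genes against 3.47% of all genes (2.17% higher and 1.31% lower). The median log2 difference was −0.07 over the member genes and −0.04 over all genes.

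The lines did not overlap at 16 of the 28 bright member probes (57.1%, against 33.5% of all such probes), with 10 higher and 6 lower in 1G11-SOD3 cells. After position adjustment they did not overlap at 14 of these probes, 7 higher and 7 lower, against 30.1% of all such probes. Among the 10 higher before adjustment, *Itga11*, the middle probe of *Itgb1*, *Itgb2* and *Pxn* counted as bright only through the 1G11-SOD3 arrays. No bright member probe counted only through the 1G11-mock arrays, so the split by direction depends on this filter. Most of the unadjusted differences were under 2-fold. After position adjustment 2 member probes were called, both higher (*Itga11* and the Ensembl probe of *Itga6*), or 3.77% against 2.37% of all probes (0.826% higher and 1.54% lower).

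**Figure D2:**
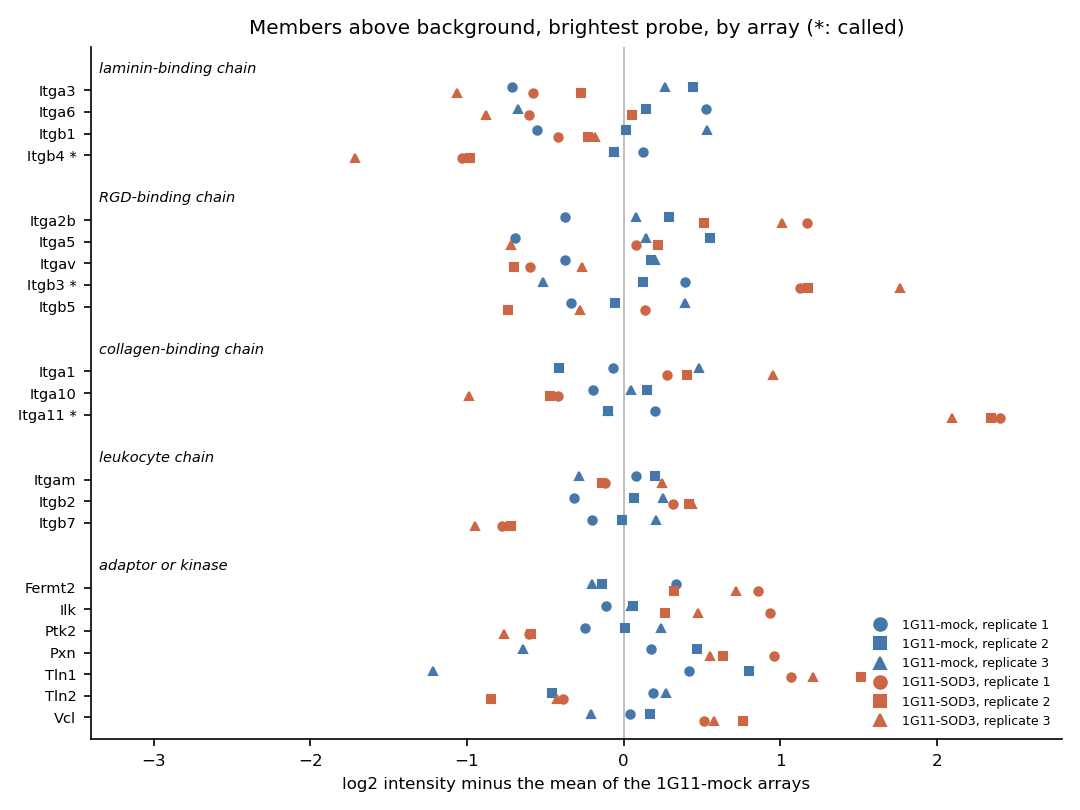
Log2 intensity on each array minus the 1G11-mock mean of the same probe, for the 22 member genes above background on at least 1 array, each by its brightest probe (blue, 1G11-mock; orange, 1G11-SOD3; marker shape, replicate; asterisk, called). *Itga11* stands more than 2 log2 units above its 1G11-mock mean on every 1G11-SOD3 array, and *Itgb4* is below it by about 1 unit or more.

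Among the laminin-binding chains, *Itgb4* was lower in 1G11-SOD3 cells, *Itga6* gave opposite differences at its 2 probes, and *Itga3*, *Itgb1* and *Itga7* had no call. *Itgb4* encodes the β4 chain, which pairs only with α6 and links laminin to intermediate filaments in hemidesmosomes. It read 13.63, 13.45 and 13.45 on the 1G11-mock arrays and 12.48, 12.53 and 11.80 on the 1G11-SOD3 arrays. All 1G11-SOD3 values were lower than all 1G11-mock values (log2 difference −1.24 ± 0.25 SE, n = 3 per line, adjusted p = 0.0234 in limma). The surface at this spot was 0.09. After position adjustment the difference was −0.88 (adjusted p = 0.0956 in limma), no longer a call, and the call was also lost when any array but 1G11-SOD3 replicate 2 was left out (adjusted p from 0.0529 to 0.0858).

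*Itga6* encodes the α6 chain, the partner of β1 and β4. Its RefSeq probe, the brightest of the laminin-binding chains on these arrays, read 15.43, 15.04 and 14.23 in 1G11-mock and 14.30, 14.95 and 14.02 in 1G11-SOD3 cells. The lines overlapped there (log2 difference −0.48 ± 0.34 SE, adjusted p = 0.583 in limma). Its Ensembl probe, designed on a separate transcript record and placed 4.12 kb upstream, read 12.39, 12.20 and 11.62 against 13.02, 13.24 and 13.37. All 1G11-SOD3 arrays were above all 1G11-mock arrays at this probe (1.14 ± 0.26 SE, adjusted p = 0.0359 in limma). The gap between the 2 differences was 1.62 on the log2 scale, and 1.70 after position adjustment (−0.36 and 1.33), the surfaces at the spots being 0.33 and 0.28. The higher call stood after position adjustment (adjusted p = 0.0394) and was lost when any array but 1G11-mock replicate 1 was left out (adjusted p up to 0.134). Since the probes disagree, no single direction is given for *Itga6*, and whether they report different transcripts was not tested.

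*Itgb1* encodes β1, the common partner of most α chains of the list. Its outer probe read 12.31, 12.88 and 13.39 in 1G11-mock and 12.44, 12.63 and 12.68 in 1G11-SOD3 cells. The lines overlapped (−0.28 ± 0.28 SE, adjusted p = 0.720 in limma; −0.28 after position adjustment). Its middle probe read 10.10, 9.26 and 7.31 against 10.64, 10.43 and 10.31. The low value was that of 1G11-mock replicate 3, which was not well above background. There the log2 difference was 1.57 ± 0.54 SE (adjusted p = 0.185 in limma) and the surface was 2.19, and after position adjustment 0.06 was left (adjusted p = 0.952). Without 1G11-mock replicate 3 the unadjusted difference was 0.78, and without replicate 1 of that line it was 2.17 and passed the threshold (adjusted p = 0.0358).

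*Itga3* encodes the α3 chain, which with β1 binds laminins of the basement membrane. It read 10.56, 11.72 and 11.54 in 1G11-mock and 10.69, 10.998 and 10.21 in 1G11-SOD3 cells, with overlap (−0.64 ± 0.33 SE, adjusted p = 0.416 in limma; −0.52 after position adjustment). *Itga7*, whose product binds laminins mainly in muscle, was well above background on no array and read 7.57, 7.58 and 7.81 against 7.58, 7.65 and 7.29. No level can be compared there. Read by their brightest probes, *Itgb4* was thus the only one of *Itga3*, *Itga6*, *Itgb1* and *Itgb4* whose lines did not overlap.

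**Figure D3:**
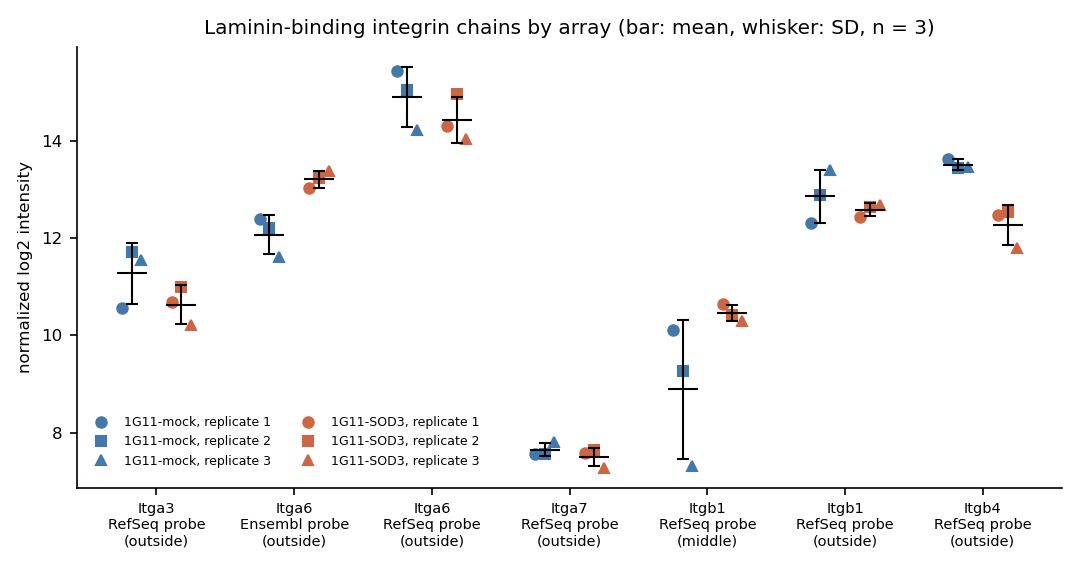
Normalized log2 intensity of the 7 probes of the laminin-binding chains on each array (blue, 1G11-mock; orange, 1G11-SOD3; marker shape, replicate; horizontal bar, mean; whisker, SD). *Itgb4* is lower and the Ensembl probe of *Itga6* higher on every 1G11-SOD3 array, whereas the middle probe of *Itgb1* ranges from 7.31 to 10.10 in 1G11-mock cells.

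The collagen-binding chain *Itga11* gave the largest difference among the members. Its product α11 pairs with β1 and is known as a collagen I receptor of fibroblasts. The probe read 8.02, 7.72 and 7.72 on the 1G11-mock arrays, where it was not well above background, and 10.22, 10.17 and 9.92 on the 1G11-SOD3 arrays, where it was. All 1G11-SOD3 arrays were thus above all 1G11-mock arrays (log2 difference 2.28 ± 0.22 SE, adjusted p = 0.000389 in limma). As 1G11-mock gave only a bound, the increase was at least 4.03-fold. Here the bound sets the mean of the 1G11-SOD3 arrays against, on each 1G11-mock array, the higher of the probe's own value and the dimmest signal well above background. The surface at the spot was 0.46, and after position adjustment the difference was 2.34 (adjusted p = 0.000868). Of the called member probes it was the only one that stayed called under every alternative with all arrays (1.73 to 2.77) and with any array left out (2.22 to 2.38, adjusted p up to 0.00522).

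Several markers of smooth muscle cells and fibroblasts moved with *Itga11*. Of 10 such genes, 6 were called higher in 1G11-SOD3 cells (*Acta2*, *Cnn1*, *Tagln*, *Pdgfrb*, *Col1a1* and *Lum*), against 2.17% of all genes. None was called lower, against 1.31% of all genes. *Pdgfra*, well above background on every array, was not called (0.52, adjusted p = 0.296 in limma), and *Myh11* and *Des* were well above background on no array. After position adjustment 5 of the 10 were called, against 2.65% of all genes, *Lum* having lost its call (adjusted p = 0.0552). The summed level of the list on the log2 scale was 14.41 to 15.17 on the 1G11-mock arrays and 15.50 to 17.44 on the 1G11-SOD3 arrays. The highest value was that of 1G11-SOD3 replicate 3 and was carried by *Dcn* (decorin), which read 13.51, 13.59 and 17.05 on the 1G11-SOD3 arrays and was not called (0.29, adjusted p = 0.905). Without *Dcn* the summed level was 12.28 to 13.10 against 15.05 to 15.34. *Col1a1*, a chain of the collagen that α11β1 binds, was called 8.55-fold higher (adjusted p = 0.00152) with a log2 difference of 2.48 after position adjustment. In bulk RNA, more cells that express a gene and more RNA per cell cannot be told apart. The part of these markers in the *Itga11* result was not tested.

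*Itga10*, which encodes a chain best known in cartilage, had probes whose 60-base sequences share 54 bases, at different places on the array. The first probe, with a surface of 0.63, read 12.18, 12.53 and 12.43 in 1G11-mock and 11.96, 11.91 and 11.39 in 1G11-SOD3 cells. The second, with a surface of 1.24, read 12.20, 12.06 and 10.93 against 11.88, 11.72 and 11.49. The first had lines that did not overlap (−0.62, adjusted p = 0.25 in limma) and the second overlapped (−0.03, adjusted p = 0.979 in limma), the difference lying mostly in 1G11-mock replicate 3. After position adjustment they gave −0.79 and −0.78, so the gap between them went from 0.592 to 0.0087 on the log2 scale. Neither was called before or after (adjusted p = 0.116 and 0.0988). *Itga1* was well above background on 1 array by its middle probe (0.55, adjusted p = 0.427), and *Itga2* was well above background on none.

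Of the chains that bind RGD ligands, *Itgb3* was called higher and *Itga5*, *Itgav* and *Itgb5* had no call. *Itgb3* encodes β3, the partner of αv in endothelial cells and of αIIb in platelets. It read 10.88, 10.61 and 9.97 in 1G11-mock and 11.61, 11.66 and 12.25 in 1G11-SOD3 cells. The lines did not overlap (1.36 ± 0.29 SE, adjusted p = 0.0288 in limma), but the spot lay in the middle, where the surface was 1.13. After position adjustment the difference was 0.72 (adjusted p = 0.137), no longer a call. The call was also lost when any array but 1G11-mock replicate 1 was left out (adjusted p up to 0.122). A second *Itgb3* probe, also in the middle, was well above background on 1 array, with a difference of 0.14 and, after adjustment, −0.52.

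*Itga2b*, which encodes the platelet chain αIIb, was well above background on no 1G11-mock array and on 2 1G11-SOD3 arrays. *Itga2b* read 6.85, 7.52 and 7.31 against 8.40, 7.74 and 8.24, so that the lines were apart by a narrow gap (0.90 ± 0.26 SE, adjusted p = 0.111 in limma). As 1G11-SOD3 replicate 2 was not well above background either, no bound on the fold change is given. Of 6 platelet and megakaryocyte markers none was called and 4, including *Gp1ba* and *Gp9*, were well above background on no array. Their summed log2 level was 10.86 to 11.15 on the 1G11-mock and 10.52 to 10.72 on the 1G11-SOD3 arrays, lower in the latter without overlap. The fibronectin receptor chain *Itga5* differed by −0.14 (0.07 after position adjustment) and *Itgb5*, a partner of αv, by −0.29 (−0.19 after it), with adjusted p of 0.901 and 0.704. The αv chain itself, *Itgav*, differed by −0.52 and −0.38 at its 2 probes (adjusted p = 0.372 and 0.472). The second of them read 9.30, 9.27 and 9.31 in 1G11-mock and 9.14, 8.83 and 8.77 in 1G11-SOD3 cells, without overlap. After position adjustment the probes gave −0.35 and 0.10, so the sign turned at the second. *Itga8*, *Itgb6* and *Itgb8* were at background on all arrays, as were *Itga4* and *Itga9*, the chains that with β1 bind VCAM-1 and tenascin.

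Of the chains known from leukocytes, none was called. *Itgb7*, which encodes the β7 chain of gut-homing lymphocytes, read 9.70, 9.90 and 10.11 in 1G11-mock and 9.13, 9.18 and 8.96 in 1G11-SOD3 cells. The lines did not overlap (−0.81 ± 0.22 SE), and the difference missed both thresholds (adjusted p = 0.0835 in limma; −0.45 after position adjustment). *Itgb2*, the common β2 chain, read 7.80, 8.18 and 8.36 against 8.43, 8.53 and 8.55, close to background and without overlap (0.39, adjusted p = 0.493 in limma; 0.66 after position adjustment).

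*Itgam* encodes αM, the partner of β2 in myeloid cells. It was bright at 1 of its 3 probes (14.28, 14.40 and 13.91 in 1G11-mock against 14.08, 14.06 and 14.44 in 1G11-SOD3 cells) and at background at the others, so its level is uncertain. The bright probe differed by −0.0047 where the surface was 1.29, and by −0.85 after position adjustment (adjusted p = 0.0914). *Itgae* read 6.83, 6.92 and 6.73 against 7.24, 7.07 and 7.50, and *Itgal* 7.98, 7.68 and 8.33 against 7.09, 7.54 and 7.24 by its brighter probe. The other *Itgal* probe read 7.41, 7.05 and 7.08 against 7.23, 7.38 and 7.72, with overlap and a mean difference of the opposite sign. None of these probes was well above background on any array, so no direction is given although the lines did not overlap at the first 2, and *Itgax* was also at background. Of 10 leukocyte markers none was called and 6, including *Ptprc* and *Laptm5*, were well above background on no array. Their summed log2 level ran from 12.55 to 12.76 on the 1G11-mock and from 12.49 to 13.14 on the 1G11-SOD3 arrays.

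The adaptors and kinases were called at none of their 15 probes. Of the 7 such genes above background on an array, 5 had a higher and 2 a lower mean in 1G11-SOD3 cells by their brightest probe, signs that held under each scaling tried and after position adjustment. Talin 1, which binds the β chain tail and activates the integrin, had the largest difference before position adjustment. *Tln1* read 14.40, 14.78 and 12.76 in 1G11-mock and 15.05, 15.49 and 15.19 in 1G11-SOD3 cells. The lines did not overlap, and 1G11-mock replicate 3 lay far below its line (1.27 ± 0.43 SE, adjusted p = 0.179 in limma). The surface at the spot was 1.32, and 0.40 was left after position adjustment (adjusted p = 0.471). Without 1G11-mock replicate 3 the unadjusted difference was 0.66. The other *Tln1* probe read 8.88, 8.54 and 7.77 against 9.53, 8.68 and 8.16, with overlap (0.40, adjusted p = 0.691; 0.53 after position adjustment).

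Vinculin, which ties talin to actin, was read by a bright probe at 13.00, 13.13 and 12.75 in 1G11-mock and 13.48, 13.73 and 13.54 in 1G11-SOD3 cells. The lines did not overlap at this *Vcl* probe (0.62, adjusted p = 0.207 in limma; 0.34 after position adjustment). The dimmer *Vcl* probe read 9.65, 9.67 and 9.55 against 10.06, 9.90 and 9.23, with overlap (0.10, adjusted p = 0.902; 0.45 after position adjustment). *Ilk*, the integrin-linked kinase, a pseudokinase that joins β1 to parvin and kindlin, read 14.06, 14.23 and 14.22 against 15.11, 14.43 and 14.64. All 1G11-SOD3 arrays were above all 1G11-mock arrays (0.56, adjusted p = 0.314 in limma; 0.46 after position adjustment).

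Paxillin, the scaffold of the plaque, lay near background. *Pxn* read 8.43, 8.72 and 7.61 in 1G11-mock and 9.21, 8.89 and 8.80 in 1G11-SOD3 cells. The lines did not overlap (0.72, adjusted p = 0.291 in limma), the surface was 1.22, and 0.20 was left after position adjustment. Kindlin 2 (*Fermt2*), the kindlin of most adherent cells, differed by 0.63 and 0.41 at its 2 probes (adjusted p = 0.264 and 0.458), and by 0.84 and 0.54 after position adjustment, where 0.84 was the largest difference among the adaptors read by their brightest probes. The second probe read 9.43, 9.30 and 9.47 in 1G11-mock and 9.55, 10.06 and 9.81 in 1G11-SOD3 cells, without overlap. The kindlins of epithelium (*Fermt1*) and of blood cells (*Fermt3*) were at background on all arrays, *Fermt3* at 6.81, 6.79 and 6.79 against 7.21, 7.11 and 7.04.

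*Ptk2*, the focal adhesion kinase, went the other way by its brightest probe. It read 11.33, 11.58 and 11.81 in 1G11-mock and 10.97, 10.99 and 10.81 in 1G11-SOD3 cells, without overlap (−0.65, adjusted p = 0.187 in limma; −0.33 after position adjustment). A dimmer probe read 9.36, 8.89 and 9.03 against 8.87, 8.54 and 8.23 (−0.55, adjusted p = 0.345 in limma), and after position adjustment its difference was 0.07, of the opposite sign. The remaining *Ptk2* probe read 7.02, 7.24 and 7.08 against 7.51, 7.39 and 8.04 and was well above background on 1 array only (0.53, adjusted p = 0.344). Talin 2 (*Tln2*) differed by −0.55 at its brighter probe (adjusted p = 0.373; −0.18 after position adjustment). None of the adaptors passed the threshold after position adjustment.

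**Figure D4:**
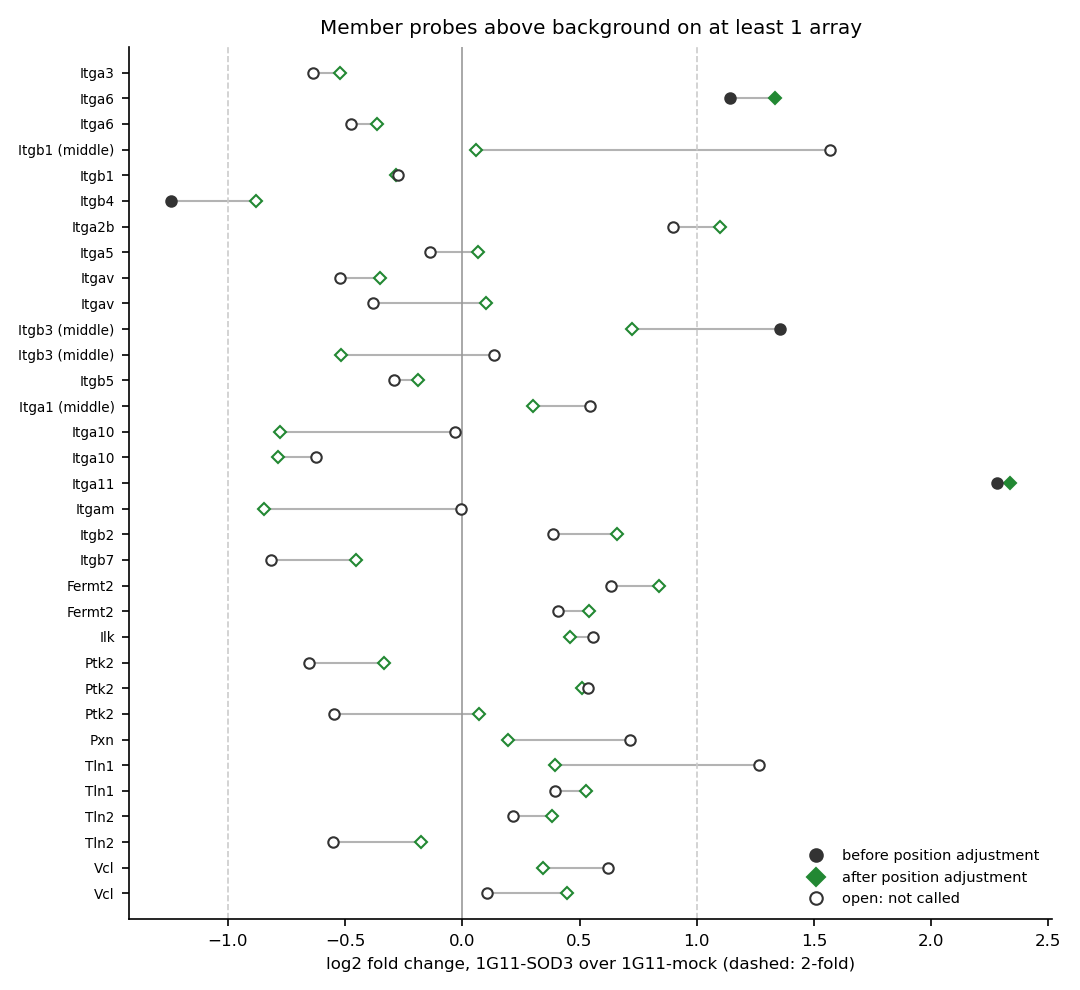
Log2 fold change (1G11-SOD3 over 1G11-mock) of the member probes above background on at least 1 array, before (circles) and after (diamonds) position adjustment, filled where called. The middle probe of *Itgb1* goes from 1.57 to 0.06, the 2 probes of *Itga10* come together, and *Itga11* hardly moves.

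By place, all 5 member probes in the middle (of *Itga1*, *Itga2*, *Itgb1* and *Itgb3*) had a higher mean in 1G11-SOD3 cells, with a median log2 difference of 0.55. Of them, that of *Itga2* was well above background on no array, and those of *Itga1* and the second of *Itgb3* on 1 array each. Over all probes in the middle the median was 0.18. Of the 48 member probes outside it, 22 were higher, with a median of −0.03. The median surface was 1.39 at the 5 member spots in the middle and 0.28 at the 48 outside it. At 12 of the 48 outer spots the surface still exceeded 0.5, among them those of *Tln1*, *Pxn*, *Itgam* and *Itga10* just described. Of the 6 genes with 2 probes well above background on all arrays, 1 of them *Itga6*, the median gap between the differences at such probes was 0.370, and 0.351 after position adjustment.

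Other genes of the pathway were counted on lists of 66 genes that are no members. In all, 5 were called higher and 2 lower by their brightest probe (3 and 2 after position adjustment, where 2.65% of all genes were called), and 4 of the 5 higher ones lay in the middle, where 13 of the 66 had their spots. Of 48 other focal adhesion proteins and integrin regulators, 4 were called higher and 1 lower (10.4%, against 3.47% of all genes), and the median difference was −0.26. The higher ones were *Zyx* (zyxin, a LIM protein of mature adhesions), *Pdlim7*, the kinase *Pak1*, and *Apbb1ip*, which encodes the talin recruiter RIAM. *Zyx* went from 10.71 ± 1.67 to 15.26 ± 0.63 (mean ± SD, n = 3), a difference of 4.55 (adjusted p = 0.00359) where the surface was 3.02, and 1.96 was left after position adjustment (adjusted p = 0.0259). *Pdlim7* (2.37) and *Pak1* (1.00), also in the middle, were no longer called after it.

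*Apbb1ip* lay outside the middle and went from 9.25 ± 0.26 to 10.36 ± 0.18 (1.11, adjusted p = 0.0270), and stayed called after position adjustment (1.15, adjusted p = 0.0203). Tensin 1 (*Tns1*), which binds β tails and actin, was lower, at 16.23 ± 0.05 in 1G11-mock and 15.20 ± 0.07 in 1G11-SOD3 cells (−1.04, adjusted p = 0.0223), and was not called after adjustment (−0.82, adjusted p = 0.107). *Git2*, not called before, was called lower after it (−1.17, adjusted p = 0.0335), with a surface of 2.13 at its spot.

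Of 12 tetraspanins and other membrane partners of integrins none was called, and the laminin receptor partner *Cd151* differed by 0.89 (adjusted p = 0.240) in the middle and by −0.08 after position adjustment. Caveolin 1 (*Cav1*) missed the threshold before the adjustment (0.89, adjusted p = 0.0556) and passed it afterward (1.12, adjusted p = 0.0134). Of 6 non-integrin laminin receptors and their sarcoglycan partners, *Bcam*, the Lutheran receptor for laminin α5, was called higher in the middle. *Bcam* read 7.25, 6.92 and 7.26, not well above background, against 8.56, 8.50 and 8.22 (at least 1.26-fold higher, adjusted p = 0.0112 in limma), and was not called after position adjustment (0.71, adjusted p = 0.207).

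*Sgce*, which encodes ε-sarcoglycan of the dystroglycan complex, had the largest decrease on these lists. It read 11.06, 11.05 and 11.25 in 1G11-mock and 8.69, 8.64 and 8.30 in 1G11-SOD3 cells. The lines lay far apart (−2.58 ± 0.22 SE, adjusted p = 0.000247 in limma), and the difference was −2.51 after position adjustment (adjusted p = 0.000492). Dystroglycan itself (*Dag1*) differed by −0.55 (adjusted p = 0.472).

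**Figure D5:**
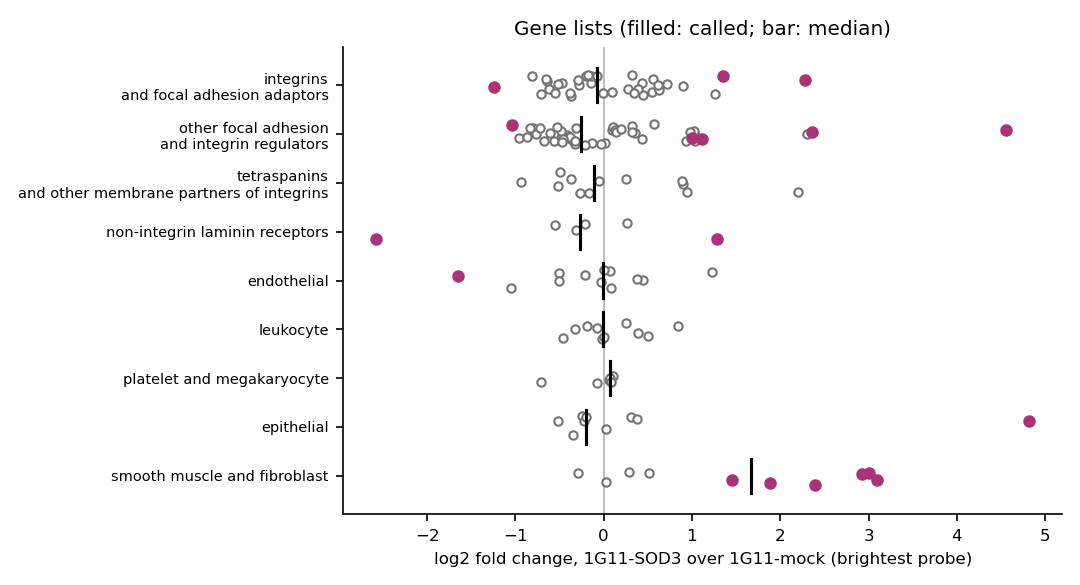
Log2 fold change (1G11-SOD3 over 1G11-mock) of each gene by its brightest probe, for the members, the 3 lists of other pathway genes and the 5 lists of cell type markers (filled, called; bar, median of the list). The member median is near 0, with *Itga11* and *Itgb3* called above it and *Itgb4* below, and the smooth muscle and fibroblast list has a median of 1.67.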

How the data were processed

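For each array the authors deposited the intensities of all spots and of their local backgrounds from Agilent Feature Extraction 10.7.3.1, unnormalized. A table of background-corrected and quantile-normalized log2 values was deposited with them. It was used as an alternative and correlated with the values computed here at r of at least 0.999 over the spots that were not controls. Mean spot intensities were corrected against the median local background (normexp, offset of 50), control spots were removed, and log2 values were quantile normalized (limma 3.58.1, R 4.3.3). Outlier spots were left out and copies of a probe averaged. The lines were tested with lmFit and eBayes of limma, p-values being adjusted by Benjamini-Hochberg over 55681 probes, following the methods of the study.

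For the position adjustment, a running median (10 rows and 5 columns on each side) of each array's deviations from the mean of the 6 arrays was subtracted before normalization, with members and probes printed 10 times held out. The fit was also run on simulated arrays, with changes only at bright probes. The position effect, where added, was the surface estimated here. That run therefore cannot tell how well the surface describes the real arrays or how dim members fare. The members, the gene lists and the position adjustment were chosen with earlier results of these data known. Values on every array are given for the laminin-binding chains, for genes with a called probe or, by their brightest probe, with lines that did not overlap, and for *Ilk*, *Tln1*, *Vcl*, *Pxn* and *Ptk2*. Other pathway genes are named when called or as background. The number of arrays, 3 per line, limits the precision of each difference. Python 3.11.15 (pandas 2.3.3, numpy 2.4.6) produced the tables and matplotlib 3.10.9 the figures. Positions were compared with GRCm38.p6 gene spans, and only 4 of 53 member probes lay inside the span of their gene, so that build was not used for coordinates.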

Additional observations from a re-analysis of the deposited data

How the results depend on the processing

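Against 4 member probes called, the counts were 1 with a normexp offset of 16, 7 with the scanner's processed signal at equal 75th percentiles (2 higher and 5 lower, against 3 and 1; it moved the median log2 difference of all probes to −0.52) and 2 after position adjustment. Against 3 genes called, the same settings gave 1, 5 (1 higher and 4 lower) and 1. Against 2 calls among the laminin-binding probes they gave 0, 1 and 1, and a variance trend gave 1. Against 7 calls among other pathway genes, 4 remained in number without background correction, 4 with the offset of 16 and 3 with the middle left out. With arrays left out in turn, these 4 counts ran from 1 to 4, from 1 to 2, from 0 to 2 and from 3 to 7. Scaling to the 75th percentile moved the median of all probes to −0.33, and under it *Tln1* (1.44, adjusted p = 0.0218) and the middle probe of *Itgb1* (1.49, adjusted p = 0.0230) were called. *Itgb4* also lost its call with the offset of 16, under either scaling to the 75th percentile and after position adjustment, *Itgb3* with the offset of 16, the processed signal and after position adjustment, and the Ensembl probe of *Itga6* with the offset of 16 and the variance trend. The second *Itga10* probe changed sign under scaling to the 75th percentile (0.14), cyclic loess (0.0912), with the middle left out (0.14) and with an array left out (−0.43 to 0.20). A dimmer *Ptk2* probe changed sign after position adjustment (0.0703), as did the dimmer *Vcl* probe without 1G11-SOD3 replicate 1 (−0.0611, the others up to 0.35). The causes were not tested. Signal over background limits the 20 member probes that were well above background on no array.

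Replicate numbers coincide with slide columns. The deviations of same-numbered arrays from their line means correlated at 0.17, 0.22 and 0.09, so the numbers were not taken as pairs. With the number as a replicate block, 5 member probes, 3 genes, 3 laminin-binding probes and 10 other pathway genes were called, the added member probe being the middle probe of *Itgb1* (1.57, adjusted p = 0.0472). Before position adjustment each 1G11-mock array correlated best with the 1G11-SOD3 array of its number, a hint from the data and not the design. After it, replicates 2 and 3 of 1G11-mock still correlated best with their own numbers (0.17 and 0.18). Replicate 1 of 1G11-mock then correlated better with 1G11-SOD3 replicate 2 (0.066) than with replicate 1 (0.0298).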
